A study of Mus musculus with 8 samples.

Results

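The genes described here are 10 secreted or surface proteins with which the mouse mammary epithelium meets microbes: Ltf, Lcn2, Trf, Pigr, Fcgbp, Wfdc2, Wfdc12, Wfdc18, Slpi and Muc1. They were chosen by name from the 27998 genes of the files. For each gene, unique molecular identifiers (UMIs, each marking 1 captured RNA molecule) were summed over the cells of each library and each of the 15 epithelial clusters (C1 to C15) called by the authors, and expressed as counts per 1000000 UMIs of that sum (CPM). Of 67 library-cluster sums, the 35 with at least 20 cells were used. The cells were EpCAM-positive mammary cells of C57BL/6N females, sorted after removal of CD31-, CD45- and Ter119-positive cells. The labels name no altered allele and no treatment for any group. Each of 4 stages was represented by 2 mice. NP mice were nulliparous and 8 weeks of age, G mice were taken at gestation day 14.5, L mice at lactation day 6, and PI mice (post involution) 11 days after their pups were weaned naturally. The ages of the G, L and PI mice are not given in the sources used here. By the study's methods, PI mouse 1 was in diestrus, whereas PI mouse 2 and both NP mice were in estrus.

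The mammary gland is a mucosal organ, and its luminal cells release defence proteins into milk and onto the duct surface. Lactoferrin (Ltf) and serotransferrin (Trf) bind iron and thereby keep it from bacteria, and lipocalin 2 (Lcn2) captures the siderophores with which bacteria collect iron. The polymeric immunoglobulin receptor (Pigr) carries IgA from the tissue side to the lumen, Fcgbp is a mucus protein that binds the Fc part of IgG, and Muc1 is a membrane mucin of the apical surface. Slpi is an inhibitor of neutrophil proteases with a WAP domain (a small disulfide-rich fold named after whey acidic protein), and Wfdc2, Wfdc12 and Wfdc18 are small secreted proteins of the same WAP-domain family. In many epithelia genes of this kind are switched on by NF-kappaB, STAT3 and C/EBP factors.

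The members lie on 6 chromosomes (GRCm38, the build of the files, with gene spans from GENCODE M21). Lcn2 (chr2:32384633-32388252), Wfdc12 (chr2:164189231-164190608), Slpi (chr2:164354070-164389095) and Wfdc2 (chr2:164562413-164568510) are on chromosome 2, and the last 3 lie within 379.3 kb of each other. Ltf (chr9:111019271-111042767) and Trf (chr9:103204001-103230444) are on chromosome 9. Wfdc18 (chr11:83709015-83711348), Pigr (chr1:130826684-130852249), Fcgbp (chr7:28071236-28120862) and Muc1 (chr3:89229057-89233381) stand alone. The 250 bases before the RefSeq start were at hand for 9 of the 10 members, without Trf (GRCm38.p6). A set of 6 letter patterns, chosen with these sequences in view, was looked for on both strands, and no match of 1 pattern overlapped a match of another. The kappaB-, STAT- and C/EBP-type patterns belong to the factors above, whereas the ETS-type and TATA-type patterns do not. The C/EBP-type pattern TTNNGCAA was present in 4 of the 9 (Ltf, Lcn2, Wfdc12 and Slpi) and in 9.55% of 27025 gene promoters. The ETS-type pattern AGGAAG was present in 5 of the 9 and in 29.2% of promoters. The kappaB-type pattern, GGGA and CC with 4 bases between, was found only in Pigr among the 9 (17.3% of promoters). The STAT-type pattern TTCNNNGAA was found in none of the 9 (7.18% of promoters), and the form with 4 bases between TTC and GAA was found only in Lcn2 among them (5.86% of promoters). The TATA-type pattern TATAAA was present in Wfdc18 and Muc1, in both 31 to 26 bases before the start (13% of promoters). These are matches of letters, not shown binding sites.

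The 5 windows below are shown because they belong to members whose levels or changes the results below turn on. Each runs 5′ to 3′ towards the start of its gene, and capitals mark matches to the C/EBP-type or TATA-type pattern. The window of Ltf is chr9:111019042-111019291 on the plus strand, that of Lcn2 chr2:32387740-32387989 on the minus strand, that of Wfdc12 chr2:164190559-164190808 on the minus strand, that of Slpi chr2:164356508-164356757 on the minus strand, and that of Wfdc18 chr11:83708754-83709003 on the plus strand.
Ltf: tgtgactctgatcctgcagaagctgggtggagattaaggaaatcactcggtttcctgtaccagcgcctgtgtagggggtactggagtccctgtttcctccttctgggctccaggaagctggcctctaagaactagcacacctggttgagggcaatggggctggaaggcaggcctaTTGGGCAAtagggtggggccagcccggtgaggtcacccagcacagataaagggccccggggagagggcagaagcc
Lcn2: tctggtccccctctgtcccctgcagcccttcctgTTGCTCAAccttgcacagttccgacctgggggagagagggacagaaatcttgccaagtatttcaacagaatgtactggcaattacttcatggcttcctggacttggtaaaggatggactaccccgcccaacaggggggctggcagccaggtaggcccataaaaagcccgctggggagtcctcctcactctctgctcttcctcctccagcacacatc
Wfdc12: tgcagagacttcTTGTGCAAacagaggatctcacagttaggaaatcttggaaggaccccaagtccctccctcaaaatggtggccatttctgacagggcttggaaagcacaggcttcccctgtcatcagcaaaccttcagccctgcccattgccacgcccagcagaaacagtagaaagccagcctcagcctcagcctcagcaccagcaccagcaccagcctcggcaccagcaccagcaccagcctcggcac
Slpi: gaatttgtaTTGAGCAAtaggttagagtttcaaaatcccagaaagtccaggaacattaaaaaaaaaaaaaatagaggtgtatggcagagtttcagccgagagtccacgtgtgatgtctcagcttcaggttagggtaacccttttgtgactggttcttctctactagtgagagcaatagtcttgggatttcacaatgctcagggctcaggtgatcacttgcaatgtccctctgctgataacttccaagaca
Wfdc18: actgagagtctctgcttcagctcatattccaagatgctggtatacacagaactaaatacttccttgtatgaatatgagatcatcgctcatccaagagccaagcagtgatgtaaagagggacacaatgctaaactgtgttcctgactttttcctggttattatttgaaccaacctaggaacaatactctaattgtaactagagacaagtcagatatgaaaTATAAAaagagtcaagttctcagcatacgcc

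The C/EBP-type match lay 75 to 68 bases before the start in Ltf, 216 to 209 in Lcn2, 238 to 231 in Wfdc12 and 241 to 234 in Slpi. These starts are those of RefSeq and differ from the ends of the GENCODE spans given above. The windows of Lcn2 and Slpi lie wholly inside those spans, and the windows of Ltf and Wfdc12 lie partly inside.

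The 8 libraries held 13785920 to 35711533 UMIs and 1449 to 5736 cells that had passed the authors' filters, with a median of 3770 to 9624 UMIs per cell. In all, 23183 cells fell in C1 to C15, 1516 in 4 non-epithelial clusters (C16 to C19) and 310 in C20, which was not used. Of the barcode sequences, 392 occurred in more than 1 library, and none of these was among the cells used. Hormone-sensing markers (Esr1, Pgr, Prlr, Cited1) summed to 1882.5 to 4296.5 CPM in C1 to C5 and 41.3 to 120.7 CPM in the secretory clusters C6 to C11. Luminal progenitor and alveolar markers (735 to 2444 CPM in C6 to C11) were less exclusive and reached 895 CPM in hormone-sensing progenitor sums. Basal markers (Krt5, Krt14, Acta2, Oxtr) summed to 6827 to 33197 CPM in C12 to C15 and up to 4785 CPM in secretory sums, the latter in the L libraries. Free RNA from broken cells also enters droplets, so each level is set beside the same gene in C16 to C19 of that library. These cells are a comparison and not a floor of free RNA, since some epithelial sums lay below them. In G, for example, Lcn2 had 183 and 154 CPM in these cells and 8.1 and 27.1 CPM in C5. The C16 to C19 cells carried Csn2, the beta-casein gene, at 609 and 481 CPM in G and at 279 and 217 CPM in L. Milk protein genes took up 447538 and 417202 CPM of the C9 sums, 72147 and 59197 CPM of C11 and 13656 and 14679 CPM of C7. This lowers the CPM of every other gene, most of all in C9. Ranks and overlaps of C9 beside other clusters below therefore hold for CPM of all UMIs only.

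**Figure D1:**
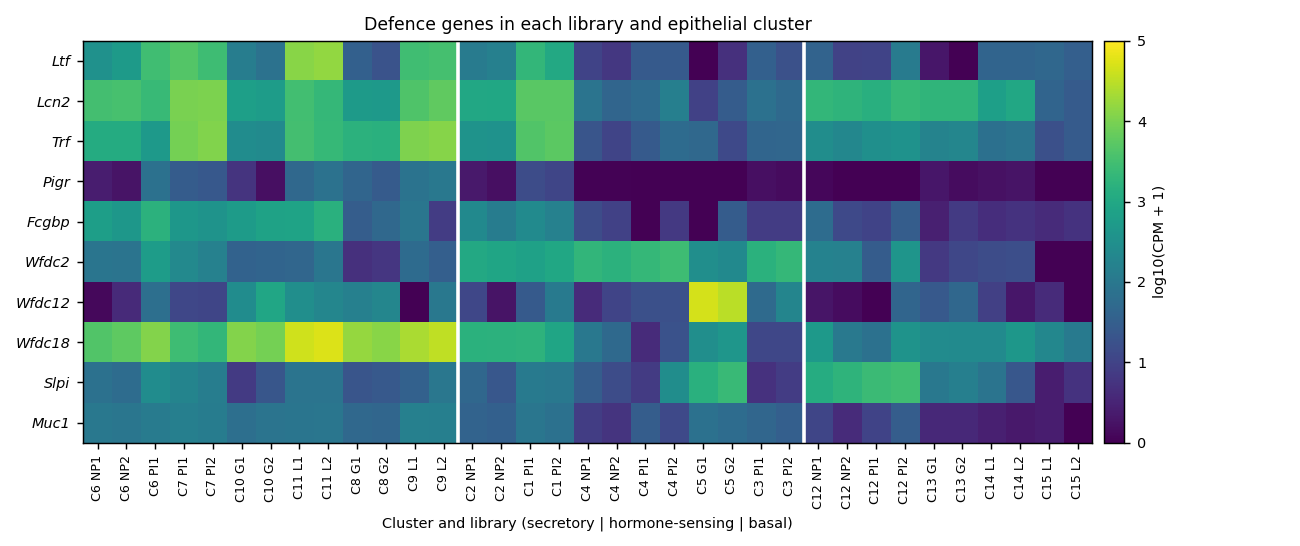
Level of each of the 10 genes (rows) in each of the 35 sums of 1 library and 1 cluster (columns), as log10(CPM + 1), with white lines between secretory, hormone-sensing and basal clusters. Wfdc18 reached its highest levels in the secretory clusters of L, Wfdc2 in hormone-sensing clusters other than C5, and Wfdc12 in the gestation cluster C5.

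The iron-binding members had their highest levels in luminal clusters, with different peaks, and Lcn2 was abundant in basal cells as well. Ltf was highest in the alveolar progenitors of lactation (C11), at 13188 CPM in L mouse 1 and 15636 CPM in L mouse 2. There 91.5% of 142 cells (95% exact binomial interval 85.7 to 95.6%) and 97.8% of 89 cells (92.1 to 99.7%) held an Ltf UMI, and 85.2% and 89.9% did after each cell was thinned to 1000 UMIs. The next cluster, the PI luminal progenitors (C7), stood at 4498 and 2829 CPM. The differentiated alveolar cells of L (C9) had 2889 and 3386 CPM, which overlapped C7. In the alveolar cells of gestation the gene was scarce, at 32.6 and 18.1 CPM in C8 and 129 and 76.7 CPM in C10. The L myoepithelial cluster (C14) had 40.7 and 39.4 CPM, below or near the 88.5 and 48.6 CPM of the non-epithelial cells of the same libraries. An Ltf UMI was seen in 14.4% and 17.2% of C14 cells at a median of 3701 and 4148 UMIs, and in 15.5% and 18.7% of non-epithelial cells at a median of 4254 and 4771 UMIs. The basal level of Ltf in L was therefore not above that of the non-epithelial cells.

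Lcn2 was the most widely expressed member. It led in C7 with 9996 and 10297 CPM in the 2 PI mice, followed by C1, the PI hormone-sensing progenitors, with 5176 and 5193 CPM, and by C9 with 4199 and 5964 CPM. It was also abundant in basal cells. The NP basal cluster C12 had 2043 and 1810 CPM and the G basal cluster C13 had 1838 and 1895 CPM, against 59.5 to 183 CPM in the non-epithelial cells of the NP and G libraries. In C13, 98.7% of 525 cells (97.3 to 99.5%) and 99.2% of 594 cells (98 to 99.7%) held a UMI at a median of 6201 and 6060 UMIs, against 27.5% and 27.9% of non-epithelial cells at 6106 and 5845 UMIs. In the Procr-positive basal cluster C15 of L it had 40.4 and 26.7 CPM, below the 85.6 and 105 CPM of the non-epithelial cells. Lowest of all was C5, the hormone-sensing cells of gestation, with 8.1 and 27.1 CPM from 1 and 7 UMIs.

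Trf peaked in C9 with 10554 and 12095 CPM, a range that overlapped the 8998 and 11190 CPM of C7. The next levels were 4402 and 5550 CPM in C1, 3253 and 2217 CPM in C11 and 1661 and 1504 CPM in C8, and none of these ranges overlapped its neighbour. Trf was thus higher in differentiated alveolar cells than in alveolar progenitors at both G and L, the reverse of Ltf. In the differentiated hormone-sensing cells (C3 to C5) it stood at 9.6 to 55.5 CPM, below the 104 to 332 CPM of the non-epithelial cells in NP, G and PI libraries.

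The immunoglobulin and mucus members were lower by far. Pigr never passed 100 CPM and had no UMI in 9 of the 35 sums. Its highest levels were 80.4 and 99.7 CPM in C9, where 40.5% of 42 cells (25.6 to 56.7%) and 59.6% of 47 cells (44.3 to 73.6%) held a UMI at a median of 11602 and 16271 UMIs, against 0.285% and 0.36% of the non-epithelial cells at 4254 and 4771 UMIs. After thinning to 1000 UMIs the shares in C9 were 11.9% and 14.9%. The next levels were 48.1 and 74.1 CPM in C11 and 41.6 and 26.7 CPM in C8, beside 72.5 CPM from 11 UMIs in the 22 cells of PI mouse 1 that fell in C6. The NP luminal progenitors (C6) held only 5 and 2 Pigr UMIs in all, in 372 and 316 cells. Fcgbp followed the progenitors: it had 799 and 1511 CPM in C11, 557 and 747 CPM in C10, and 634 and 434 CPM in NP C6, but 28.5 and 47.5 CPM in C8 and 90.8 and 6.7 CPM in C9. The same 22 C6 cells of PI mouse 1 had the highest Fcgbp level, 1635 CPM. Muc1 had a median of 43.2 CPM over the 35 sums and its highest levels in C9 (148 and 140 CPM) and C7 (142 and 125 CPM), whose ranges overlapped.

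Wfdc18 was the most abundant member, with 975368 UMIs over the 35 sums, and its order of levels followed the secretory lineage. It had 42676 and 55447 CPM in C11, 22877 and 33434 CPM in C9, 15975 and 12878 CPM in C8 and 11981 and 8980 CPM in C10. These 4 did not overlap in CPM, but the milk protein share lowers C9 more than C11, and the order without it was not computed. In NP C6 it stood at 4454 and 5640 CPM. In basal clusters of G and L the 246 to 440 CPM found in C13 and C14 lay close to the 155 to 328 CPM of the non-epithelial cells there.

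The chromosome 2 WAP genes each had a pattern of their own. Wfdc2 marked hormone-sensing cells, with 1928 and 1629 CPM in NP C4, 1592 and 2155 CPM in PI C3 and 1018 and 861 CPM in NP C2. In C8 it had 3.9 and 5.1 CPM. Slpi was a basal gene in the glands without pregnancy or lactation: NP C12 had 1232 and 1801 CPM and PI C12, from 27 and 53 cells, 2510 and 2945 CPM. In G basal cells (C13) it had 98.1 and 145 CPM and in L C14 84.4 and 22.2 CPM. Among NP basal cells 75.8% (71.8 to 79.5%) and 77% (71.6 to 81.7%) held a Slpi UMI at a median of 6046 and 6302 UMIs, against 20.5% and 10.1% of non-epithelial cells at 5698 and 5268 UMIs.

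By level, Wfdc12 stood out in 1 small cluster. In C5, the hormone-sensing cells of gestation, it made up 48555 CPM in the 20 cells of G mouse 1 and 29957 CPM in the 41 cells of G mouse 2. A UMI was present in 100% (83.2 to 100%) and 95.1% (83.5 to 99.4%) of these cells at a median of 6224 and 5514 UMIs, against 5.9% and 5.3% of non-epithelial cells at 6106 and 5845 UMIs. The next cluster, C10, had 264 and 926 CPM. In C8 (147 and 196 CPM) 99.2% and 98.9% of the Wfdc12 UMIs came from the tenth of cells that held most, with up to 949 and 471 UMIs in a single cell. By count, C8 held 3896 and 4301 Wfdc12 UMIs and C5 held 5984 and 7740, of 29019 over the 35 sums. C5 was also high in Slpi, with 1493 and 2411 CPM, a range that overlapped the NP basal cells. Between the ends of Wfdc12 and Wfdc2 on chromosome 2 lie 16 other protein-coding genes. Of these, 4 reached 20 CPM in any of the 35 sums, and each of the 4 had its highest level outside C5. Wfdc15b (16.2 and 7.7 CPM) and Svs2 (0 and 7.7 CPM) were low but had their highest levels in C5. Another 9 had no UMI in C5, which held only 123242 and 258370 UMIs, and some of them had none in any sum. These zeros cannot show how far a high level in C5 extended over the interval.

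Added together, the 10 genes made up 6.35% and 7.75% of all UMIs in C11 and 4.09% and 5.54% in C9, with Wfdc18 as the largest part. They made up 5.08% and 3.32% in C5, nearly all of it Wfdc12, and 2.74% and 2.72% in C7, where Lcn2 led in PI mouse 1 and Trf in PI mouse 2. In L C15 they made up 0.032% and 0.02%. The clusters were called on the same counts, so no test was made between clusters, and all tests below compare stages within a lineage, with the mouse as the replicate.

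Each stage comparison summed all cells of a lineage per mouse and was tested with edgeR's quasi-likelihood test over all genes that passed a filter on low counts, with Benjamini-Hochberg adjusted p-values called below 0.05. With 2 mice against 2, an exact permutation test of a single value could not go below p = 0.333, so each p rests on the spread that edgeR shares among genes. The comparisons share mice: the NP pair enters 6 of the 9 and the G pair 6, so they are not independent of each other. Fold changes are log2 values ± SE, relative to the bulk of genes.

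The first question was how PI mice, after pregnancy, lactation and involution, differ from NP mice. These events come together in the PI mice, whose ages are not given. They cannot be told apart here from each other or from age, and the estrus phase was not the same in all mice. In luminal progenitors (C6 and C7), 8 of the 10 members rose from NP to PI and 1 fell, where 26.9% of 10766 genes were called, 13.9% higher and 13% lower. Trf had 1171 and 1171 CPM in the NP mice and 8827 and 11121 CPM in the PI mice, an 8.52-fold higher mean (log2 fold change 3.17 ± 0.20, edgeR adjusted p = 1.92e-06). Ltf went from 336 and 527 CPM to 4465 and 2829 CPM (3.16 ± 0.26, adjusted p = 1.46e-05). Lcn2 went from 3252 and 3487 CPM to 9843 and 10243 CPM (1.66 ± 0.18, adjusted p = 7.18e-05). In each the PI mice stood far above both NP mice, and the gap was wide against the spread within a pair. The 22 cells of PI mouse 1 that fell in C6 did not share all of this. Their Ltf (2893 CPM) was above both NP mice, but their Trf (488 CPM) and Lcn2 (2386 CPM) were below both.

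Pigr rose too, from 1.5 and 0.8 CPM to 29 and 22.7 CPM (4.46 ± 0.35, adjusted p = 9.73e-06). Wfdc2 (1.29 ± 0.18), Slpi (1.36 ± 0.17), Wfdc12 (3.01 ± 0.52, from 1 and 7 NP UMIs) and Muc1 (0.59 ± 0.13) were the others that rose. Slpi, at 73.3 and 57.5 CPM in NP and 183 and 136 CPM in PI, was not clear of the non-epithelial cells. These had 38.3 and 80.1 CPM in NP and 1686 (from a single cell) and 199 CPM in PI. The differentiated hormone-sensing cells of the same mice had 28.5 and 13.6 CPM of Slpi in NP and 4.4 and 15.8 CPM in PI. Wfdc2 started at 88.7 and 81.1 CPM, near the 76.5 and 56.6 CPM of the non-epithelial cells in NP. The part of free RNA in these 2 changes was not tested. The member that fell was Wfdc18, from 4454 and 5649 CPM to 3026 and 2164 CPM (-0.88 ± 0.20, adjusted p = 0.00824). In the 22 C6 cells of PI mouse 1, however, it stood at 12002 CPM, above both NP mice. Fcgbp, at 634 and 433 CPM in NP and 465 and 372 CPM in PI, overlapped between the groups (-0.27 ± 0.17, adjusted p = 0.28). The median change was 1.51 over the 10 members and -0.02 over all genes. Without NP mouse 2, the calls of Wfdc18 (-0.67, adjusted p = 0.0712) and Muc1 (0.56, adjusted p = 0.053) were lost, whereas over all 11 alternatives their adjusted p ranged from 2.89e-07 to 0.0712 and from 0.000236 to 0.053. Total-count scaling in place of TMM, edgeR's default scaling, moved the share of higher calls among all called genes from 51.7% to 40.9%. The milk protein genes, also higher in PI, summed to 770 and 1445 CPM in NP and 13392 and 14585 CPM in PI. Markers of immune cells summed to 11.2 and 12.8 CPM in NP and 28.9 and 33.3 CPM in PI. Neutrophil markers summed to 19.9 and 39.7 CPM in NP and 70.2 and 21.3 CPM in PI, with 4 to 5 of the 6 at 0 in each mouse. The part of these in the changes was not tested.

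Hormone-sensing progenitors (C1 and C2) changed in much the same genes. Of the 10 members, 7 rose and none fell, where 16.6% of 10692 genes were called (9.58% higher and 7.05% lower). Trf had 376 and 346 CPM in NP and 4296 and 5537 CPM in PI (3.76 ± 0.22, adjusted p = 5.80e-07). Ltf had 121 and 148 CPM in NP and 2020 and 1050 CPM in PI (3.49 ± 0.27, adjusted p = 6.76e-06). Lcn2 had 999 and 958 CPM in NP and 5062 and 5178 CPM in PI (2.38 ± 0.19, adjusted p = 7.18e-06). All 3 iron-binding members were again higher in both PI mice, by 5.23- to 13.6-fold in the means. Pigr (3.53 ± 0.44), Wfdc12 (3.53 ± 0.64), Slpi (1.64 ± 0.23) and Muc1 (1.14 ± 0.15) rose as well. Slpi, at 44.8 and 21.4 CPM in NP and 113 and 100 CPM in PI, was not clear of the non-epithelial cells. Those cells had 38.3 and 80.1 CPM in NP and 1686 (from a single cell) and 199 CPM in PI. The differentiated hormone-sensing cells of the same mice had 28.5 and 13.6 CPM in NP and 4.4 and 15.8 CPM in PI. The part of free RNA in the rise of Slpi was not tested. Wfdc2, Wfdc18 and Fcgbp overlapped between the groups and were not called. The Wfdc12 rise rested on 115 CPM in PI mouse 2 against 25.1 CPM in PI mouse 1, and was not called by DESeq2 (adjusted p = 0.201) or without NP mouse 2 (adjusted p = 0.0795), with 1.01e-63 as the lowest adjusted p of its 11 alternatives. Milk protein genes summed to 198 and 336 CPM in NP and to 6634 and 7308 CPM in PI. Their part, and that of free RNA, in the rise of Pigr to 12.8 and 9.9 CPM was not tested. The non-epithelial cells of the PI libraries held no Pigr UMI, but were too few to set a limit below these levels. In them 3 UMIs would be 76.7 CPM in PI mouse 1 and 12.7 CPM in PI mouse 2. The differentiated hormone-sensing cells of the same 2 mice had 0.5 and 0.4 CPM of Pigr, from 2 and 6 UMIs.

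In the differentiated hormone-sensing cells (C3 and C4), 4 of 9 tested members rose and 1 fell, where 14.3% of 11994 genes were called (7.64% higher and 6.65% lower). Wfdc12 had 3.2 and 9.7 CPM in NP and 48.8 and 186 CPM in PI (4.17 ± 0.58, adjusted p = 0.000872). Muc1 had 7 and 4.7 CPM in NP and 41.9 and 30.3 CPM in PI (2.54 ± 0.21, adjusted p = 2.20e-05). Wfdc18 fell from 96.9 and 50 CPM to 10.1 and 11 CPM (-2.80 ± 0.27, adjusted p = 5.96e-05), and its NP levels lay around the 51 and 163 CPM of the NP non-epithelial cells. Slpi, at 28.5 and 13.6 CPM in NP and 4.4 and 15.8 CPM in PI, overlapped and was not called (-0.83 ± 0.40, adjusted p = 0.19). It was called lower in 5 of 11 alternatives, with -2.36 without PI mouse 2 as the lowest value and adjusted p from 8.29e-12 to 0.713. Ltf (1.61 ± 0.28) and Trf (1.5 ± 0.25) were called higher, at 32.3 and 16.8 CPM and 41.1 and 43.2 CPM in PI. Trf lay below the 332 and 216 CPM of the non-epithelial cells of the same mice, and the part of free RNA in its rise was not tested. For Ltf these cells had 80.4 CPM in PI mouse 2, from 19 UMIs, and no UMI in the 9 cells of PI mouse 1. After thinning, 1.7% and 1.45% of C3 cells held an Ltf UMI, against 0% and 5.17% of the non-epithelial cells. Ltf was thus not shown to lie above these cells at this depth. Pigr did not pass the filter on low counts. Wfdc2, the leading member of these cells, had 1929 and 1630 CPM in NP and 1637 and 2174 CPM in PI and was not called (0.05 ± 0.22, adjusted p = 0.907). All 3 basal markers tested were called lower in PI, with a median change of -2.56, as were the 1 endothelial marker tested and 1 of 5 fibroblast markers, and their part in these changes was not tested.

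**Figure D2:**
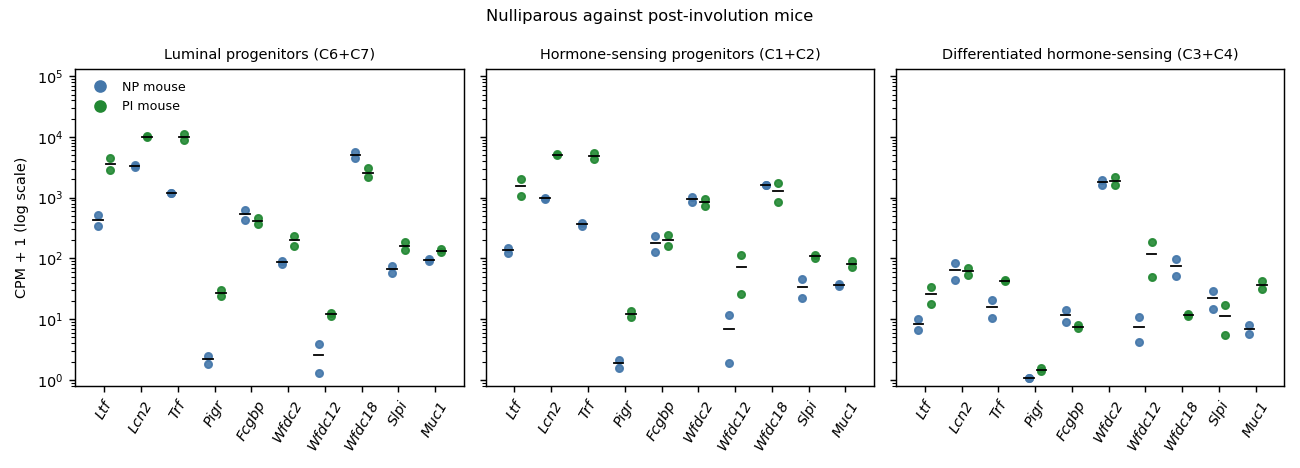
CPM + 1 on a log axis of each gene in the NP (blue) and PI (green) mice, 1 point per mouse and a bar at the mean, in luminal progenitors, hormone-sensing progenitors and differentiated hormone-sensing cells. In both progenitor panels Ltf, Lcn2, Trf and Pigr lie higher in each PI mouse than in each NP mouse, whereas Lcn2 overlaps in the third panel.

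The test of the difference between lineages compared these changes directly, in 1 model with cell type, mouse and stage. Between luminal progenitors and differentiated hormone-sensing cells the change from NP to PI differed for 7 of the 10 members, where 20.2% of 11743 genes were called (10.4% higher and 9.84% lower). The change was larger in luminal progenitors for Slpi (difference of log2 fold changes 2.04 ± 0.34, and 1.52 to 3.93 over 6 alternatives, the highest without PI mouse 2), Lcn2 (1.75 ± 0.22), Wfdc18 (1.72 ± 0.31), Trf (1.66 ± 0.20), Ltf (1.51 ± 0.25) and Wfdc2 (1.25 ± 0.24), the Wfdc18 value being a smaller fall. It was smaller in luminal progenitors for Muc1 (-1.97 ± 0.18, edgeR adjusted p = 1.13e-07). Between the 2 kinds of progenitors only Wfdc2 differed (1.49 ± 0.24, adjusted p = 0.000963), where 3.55% of genes were called (1.93% higher and 1.62% lower). For Ltf the difference between progenitors was -0.26 ± 0.19, and for Trf -0.56 ± 0.17 with an adjusted p of 0.0832. These do not show that the progenitors changed alike, and without the filter on low counts 4 members differed.

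The second question was how the genes move from the resting to the pregnant gland. In the secretory lineage as a whole (C6 to C11), all 10 members were called between NP and G, in a comparison where 58.3% of 12378 genes were called (31% higher and 27.4% lower). Members of each role moved in both directions. Ltf fell from 335 and 525 CPM to 37.1 and 22.6 CPM (-3.69 ± 0.28, adjusted p = 5.21e-06). Lcn2 fell from 3245 and 3485 CPM to 534 and 511 CPM (-2.55 ± 0.13, adjusted p = 5.60e-07). Fcgbp (-2.70 ± 0.24), Wfdc2 (-3.60 ± 0.16), Slpi (-1.47 ± 0.14) and Muc1 (-0.83 ± 0.11) fell as well. Wfdc2 had 89.5 and 80.9 CPM in NP and 5.4 and 7.4 CPM in G, where non-epithelial cells had 76.5 and 56.6 CPM and 2.7 and 0.7 CPM. Slpi had 73 and 57.4 CPM in NP and 19.4 and 23.5 CPM in G, where these cells had 38.3 and 80.1 CPM and 12.6 and 23.2 CPM. The part of free RNA in these 2 falls was not tested. The other members rose. Wfdc12 went from 0.3 and 2.9 CPM, 1 and 7 UMIs, to 153 and 245 CPM (7.28 ± 0.43, adjusted p = 1.40e-06). Pigr went from 1.5 and 0.8 CPM to 39.9 and 24.9 CPM (4.88 ± 0.50, adjusted p = 3.03e-05). Wfdc18 went from 4478 and 5670 CPM to 15785 and 12613 CPM (1.63 ± 0.18), and Trf from 1169 and 1173 CPM to 1595 and 1418 CPM (0.51 ± 0.12).

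The G sums consisted mostly of differentiated alveolar cells, of which the NP sums had next to none. When only C6 of NP and the alveolar progenitors C10 of G were compared, Trf was lower in G (-2.21, adjusted p = 1.92e-07), Fcgbp was not called (0.28, adjusted p = 0.221) and Muc1 lost its call (-0.31, adjusted p = 0.108). The adjusted p of Trf ranged from 1.92e-07 to 0.0288, that of Fcgbp from 2.89e-85 to 0.221 and that of Muc1 from 2.07e-07 to 0.108 over 11 alternatives. Pigr did not pass the filter there. The other 6 members were called in the same direction, but with other sizes: Ltf at -2.09, Lcn2 at -2.46, Wfdc2 at -1.18, Wfdc12 at 8.67, Wfdc18 at 1.04 and Slpi at -2.24. In the whole lineage 4 of 5 immune cell markers tested were called higher (31% of all genes), with sums of 11.1 and 12.8 CPM in NP and 57.9 and 69.7 CPM in G. The 1 neutrophil marker tested was called lower (27.4% of all genes), and the part of these markers was not tested.

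The third question was lactation. In alveolar progenitors (C10 and C11), 8 of 10 members rose from G to L and none fell, where 28% of 8446 genes were called (15.7% higher and 12.3% lower). Ltf had 129 and 76.7 CPM in G and 12818 and 15391 CPM in L, a 137-fold higher mean (7.39 ± 0.30, adjusted p = 1.01e-06), and ranked 15th among all genes by the size of its rise. Wfdc18 had 11981 and 8980 CPM in G and 41623 and 54392 CPM in L (2.48 ± 0.22, adjusted p = 4.97e-05). Trf had 269 and 241 CPM in G and 3131 and 2174 CPM in L (3.67 ± 0.22, adjusted p = 4.64e-06). For these 3 genes the L mice differed from each other by far less than they differed from the G mice. Pigr (4.93 ± 0.47), Slpi (3.01 ± 0.37), Lcn2 (2.30 ± 0.20), Wfdc2 (1.30 ± 0.22) and Fcgbp (1.08 ± 0.28) rose too. Muc1, at 67.3 and 83.6 CPM in G and 85.1 and 88.6 CPM in L, and Wfdc12, at 264 and 926 CPM in G and 296 and 197 CPM in L, were not called. Without G mouse 1, the call of Fcgbp was lost (0.87, adjusted p = 0.0636, the highest of 11 alternatives, whose lowest was 4.78e-17). Wfdc12 was called lower without G mouse 1 (-1.64), without L mouse 1 (-1.33), without L mouse 2 (-0.69) or without the filter on low counts (-1.03), but not without G mouse 2 (0.18), with adjusted p from 1.79e-07 to 0.692 over its 11 alternatives.

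Differentiated alveolar cells (C8 and C9) gave a like picture from few L cells, 43 and 48. There 8 of 10 members rose, where 18.7% of 11860 genes were called (9.54% higher and 9.17% lower). Ltf had 32.6 and 18.1 CPM in G and 2864 and 3372 CPM in L (7.84 ± 0.37, adjusted p = 2.40e-08). Lcn2 had 528 and 505 CPM in G and 4171 and 5955 CPM in L (4.2 ± 0.27, adjusted p = 3.50e-07). Trf had 1661 and 1504 CPM in G and 10462 and 12056 CPM in L (3.73 ± 0.24, adjusted p = 4.04e-07). Again each L mouse was above each G mouse. Wfdc2 (4.15 ± 0.33), Slpi (2.59 ± 0.31), Muc1 (2.55 ± 0.17), Pigr (2.30 ± 0.28) and Wfdc18 (1.87 ± 0.26) were also called higher. Fcgbp overlapped, with 91.8 and 6.7 CPM in L. Wfdc12 had 147 and 196 CPM in G and, in L, no UMI in mouse 1, where 3 UMIs would be 5.24 CPM, and 101 CPM in mouse 2. It was not called (-0.72, adjusted p = 0.413), and without L mouse 2 it was called lower.

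Milk protein genes took up 443712 and 416266 CPM of these L sums, against 96653 and 57393 CPM in G, which lowers the CPM of every other gene. Scaling by the total count in place of TMM moved the median change of all genes by -0.90 in differentiated alveolar cells and by -0.28 in alveolar progenitors. The share of higher calls moved from 51% to 9.06% in the former and from 56% to 31.6% in the latter, and to 62.6% and 71.7% with DESeq2. Under total-count scaling the same 8 members were called higher in each, and Wfdc12 was called lower in differentiated alveolar cells (-1.65, adjusted p = 0.0105, in a range from 2.78e-05 to 0.887 over 11 alternatives). Basal markers moved with the stage: all 4 were higher in both L comparisons, where 9.54% (differentiated) and 15.7% (progenitors) of all genes were higher. They summed to 2067 and 903 CPM in C9 and 4785 and 3422 CPM in C11, against 123 to 221 CPM in C8 and C10. Of the members called higher, the basal cells of the L libraries held 84.9 and 22.2 CPM of Slpi, which overlapped its 38.1 and 96.6 CPM in L differentiated alveolar cells and its 103 and 81.7 CPM in L alveolar progenitors. They held 655 and 1017 CPM of Lcn2, 250 and 440 CPM of Wfdc18, 69.8 and 83.4 CPM of Trf and 40.7 and 39.3 CPM of Ltf. Their Wfdc2 (13.6 and 15.2 CPM), Fcgbp (3.5 and 4.3 CPM), Muc1 (1.8 and 1.2 CPM) and Pigr (0.7 and 0.8 CPM) were lower still. Apart from Slpi, each of these was below its level in every L alveolar sum in which it was called.

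Markers of other cell types moved with lactation as well, where 15.7% of all genes were called higher in alveolar progenitors and 9.54% in differentiated alveolar cells. In alveolar progenitors 2 of 2 immune markers tested were called higher (38.3 and 40.6 CPM in G, 300.4 and 247 CPM in L), as were 2 of 2 fibroblast markers (25.2 and 19.3 CPM in G, 123 and 67.9 CPM in L), and all 6 neutrophil markers were at 0 in L. In differentiated alveolar cells 3 of 5 immune markers were higher, with sums of 58.8 and 71.7 CPM in G and 256 and 57.7 CPM in L. The 1 neutrophil marker tested there was higher too, with the markers summing to 3.7 and 1.9 CPM in G and 13.9 and 9.4 CPM in L. The 1 plasma cell marker tested was higher in both comparisons. The part of these markers in the changes was not tested.

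**Figure D3:**
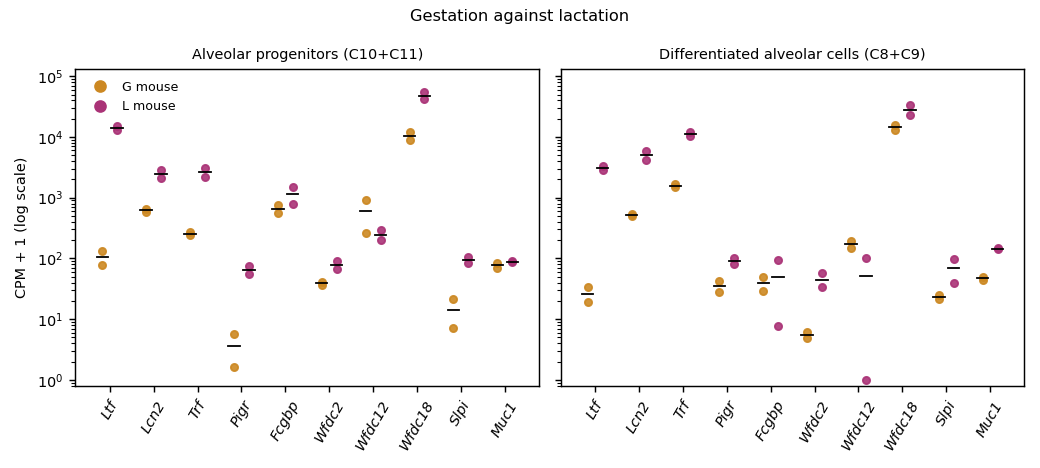
CPM + 1 on a log axis of each gene in G (orange) and L (purple) mice, 1 point per mouse and a bar at the mean, in alveolar progenitors and differentiated alveolar cells. Ltf shows the widest gap in both panels, from 129 and 76.7 CPM to 12818 and 15391 CPM in progenitors, and the L points of Fcgbp and Wfdc12 lie far apart in differentiated cells.

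The fourth question was the hormone-sensing lineage in gestation, for which the G mice gave only 20 and 41 cells, against 983 and 1217 NP cells (C3 to C5). Of 9 members tested, 4 rose and 2 fell, where 18.6% of 10978 genes were called (8.03% higher and 10.6% lower). Wfdc12 went from 3.2 and 9.7 CPM to 48555 and 29957 CPM, the rise ranked 2nd among all genes (12.28 ± 0.38). Slpi went from 28.5 and 13.6 CPM to 1493 and 2411 CPM (6.34 ± 0.22), a 92.7-fold higher mean. Muc1 went from 7 and 4.7 CPM to 73 and 58.1 CPM (3.20 ± 0.46). These 3 genes were apart by more than any spread between mice. Wfdc18 was called higher (2.13 ± 0.20), but its 300.2 and 426 CPM stood near the 236 and 236 CPM of the non-epithelial cells. Wfdc2 fell from 1929 and 1630 CPM to 292 and 240 CPM (-3.01 ± 0.23) and Lcn2 from 84.2 and 42.3 CPM to 8.1 and 27.1 CPM (-1.82 ± 0.44, adjusted p = 0.00044). Lcn2 was then below the 183 and 154 CPM of the non-epithelial cells, and lost its call with DESeq2 (adjusted p = 0.0559) and without NP mouse 1 (adjusted p = 0.105), in a range from 7.17e-05 to 0.105. In this fit edgeR found no extra spread of single genes beyond the trend (infinite prior degrees of freedom), so its p-values rest on the trend over genes and are not set beside those of the other comparisons. The share of higher calls was 43% and moved to 54.4% with DESeq2 and to 61.8% with total-count scaling, which moved the median change by 0.24.

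Basal cells (C12 to C14) came last. From NP to G, 1 of 9 tested members rose and 4 fell, where 46.1% of 11086 genes were called (24.3% higher and 21.9% lower). Slpi fell from 1232 and 1792 CPM to 97.6 and 170 CPM, an 11.3-fold lower mean (-3.41 ± 0.23, adjusted p = 1.42e-08). Wfdc2 fell from 163 and 157 CPM to 6 and 11 CPM (-4.12 ± 0.20, adjusted p = 3.73e-10). The non-epithelial cells had 76.5 and 56.6 CPM of Wfdc2 in NP and 2.7 and 0.7 CPM in G, and the part of free RNA in its fall was not tested. Lcn2 had 2043 and 1809 CPM in NP and 1831 and 1881 CPM in G and was not called (0.03 ± 0.12, adjusted p = 0.838). Slpi thus moved down in basal cells and up in hormone-sensing cells at the same stage. Wfdc12 was called higher (5.54 ± 0.47), at 24.1 and 45.8 CPM in G against 9 and 9.3 CPM in the non-epithelial cells. Ltf and Fcgbp were called lower, from NP levels of 38.8 and 8.7 CPM and of 57.1 and 11.4 CPM, which differed several-fold between the NP mice. All 4 hormone-sensing markers were called lower in the same comparison. Called higher were 5 of 6 fibroblast markers (summed to 177 to 264 CPM in NP and 672 to 901 CPM in G), 4 of 4 immune markers tested (77.8 to 90.3 CPM in NP and 190 to 227 CPM in G) and 2 of 5 endothelial markers. Their part in these changes was not tested. Wfdc18, with 482 and 102 CPM in NP, was not called (-0.06 ± 0.37, adjusted p = 0.903), yet was called higher without NP mouse 1 (1.43) and lower without NP mouse 2 (-0.75), with adjusted p from 1.26e-10 to 0.992 over 11 alternatives. Without NP mouse 2, 8 members were called.

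From G to L, 2 of 9 tested members were called higher and 3 lower in basal cells, where 48.3% of 12720 genes were called (24.2% higher and 24% lower). Lcn2 fell from 1831 and 1881 CPM to 655 and 1017 CPM (-1.04 ± 0.19, adjusted p = 0.00226), and Trf from 169 and 198 CPM to 69.8 and 83.4 CPM (-1.15 ± 0.15, adjusted p = 0.000401), the latter near the 69.8 and 148 CPM of the non-epithelial cells. Wfdc12 was lower as well, at 7.9 and 1 CPM in L. Ltf (5.49 ± 0.25) and Wfdc2 (0.85 ± 0.27) were called higher, at 40.7 and 39.3 CPM and 13.6 and 15.2 CPM, and Ltf was at the level of the non-epithelial cells. DESeq2 called 3 of these 5 members, without Wfdc2 (adjusted p = 0.0635) and Wfdc12 (adjusted p = 0.0607), whose adjusted p ranged from 0.00114 to 0.146 and from 2.35e-43 to 0.0607. Slpi, at 84.9 and 22.2 CPM in L, was not called (-1.21 ± 0.50, adjusted p = 0.0755).

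**Figure D4:**
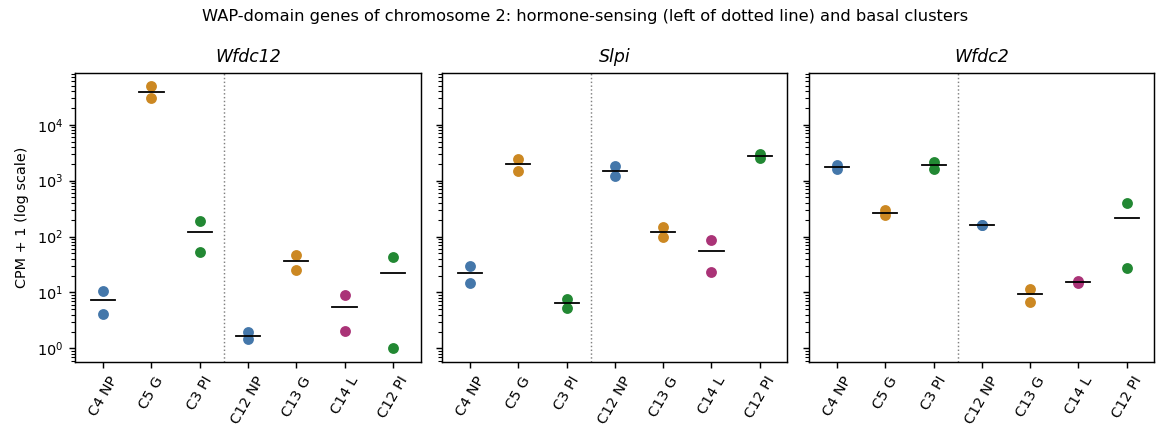
CPM + 1 on a log axis of the WAP-domain genes Wfdc12, Slpi and Wfdc2, 1 point per mouse and a bar at the mean, in hormone-sensing clusters (C4 of NP, C5 of G, C3 of PI) and basal clusters (C12 of NP and PI, C13 of G, C14 of L). In C5 Wfdc12 and Slpi are far above C4 and C3 and Wfdc2 is below them, whereas in basal cells Slpi is lower in G and L than in NP and PI.

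**Figure D5:**
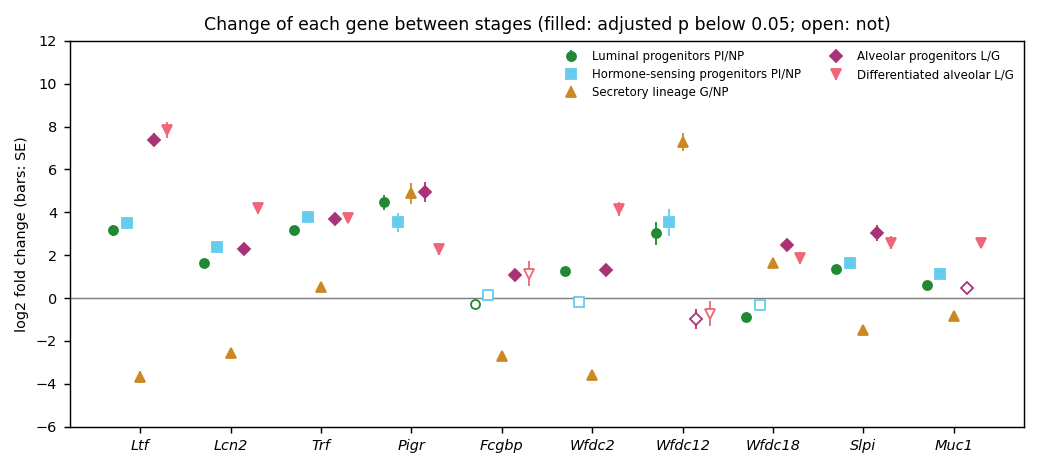
Log2 fold change with its SE for each gene in 5 of the stage comparisons, where filled symbols passed an adjusted p of 0.05 and open ones did not. The comparisons are luminal and hormone-sensing progenitors from NP to PI, the secretory lineage from NP to G, and alveolar progenitors and differentiated alveolar cells from G to L. Among those shown, Ltf has the largest rises from G to L (7.39 and 7.84) and fell from NP to G (-3.69), where Wfdc12 has the largest rise (7.28).

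Genes of the same pathways were followed as lists, with the number that passed the same test. Of 22 other antimicrobial genes, 12 were tested in luminal progenitors, of which 7 were higher and 2 lower in PI, with a median change of 1.07, beside 13.9% higher and 13% lower among all genes. The acute-phase gene Saa1 went from a mean of 0.21 to 39.6 CPM (7.72 ± 0.44), Lbp, a lipopolysaccharide-binding protein, went from a mean of 11 to 104 CPM (3.37 ± 0.27), and Chil1, a chitinase-like protein, from 105 to 424 CPM (2.10 ± 0.17). The complement gene C3 went the other way, from 138 to 30.4 CPM (-2.10 ± 0.18). In alveolar progenitors 8 of 10 tested were higher and 1 lower in L (15.7% and 12.3% of all genes), and Lbp (4.95 ± 0.32) and C3 (-3.40 ± 0.24) moved in the same directions as after involution. In differentiated hormone-sensing cells 1 of 11 was higher and 2 were lower in PI, where 14.3% of all genes were called (7.64% higher and 6.65% lower).

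Of the other iron handling genes, 5 of 11 tested were higher in PI luminal progenitors and none was lower, with a median change of 0.56 (13.9% and 13% of all genes). Fth1, the ferritin heavy chain that stores iron, went from a mean of 2379 to 6446 CPM (1.52 ± 0.17, adjusted p = 0.000111), and Hmox1, which frees iron from haem, from 66 to 296 CPM (2.26 ± 0.26, adjusted p = 0.00012). In alveolar progenitors 4 of 8 were higher and 1 lower in L, against 15.7% and 12.3% of all genes. Tfrc, the receptor that takes up transferrin, was among the higher (1.47 ± 0.28). Of the other WAP-domain genes, 3 of 4 tested were higher in L differentiated alveolar cells (9.54% of all genes), including Wap itself, the major whey protein of mouse milk (mean 249 CPM in G and 96265 CPM in L), and Wfdc17 (5.59 ± 0.23 in alveolar progenitors). Of the other mucus genes, 3 of 3 tested were higher in PI luminal progenitors, among them the membrane mucin Muc4 (1.51 ± 0.19). Of immunoglobulin transport and recruitment genes, 1 of 2 tested was higher in PI luminal progenitors (13.9% of all genes) and 2 of 2 in PI hormone-sensing progenitors (9.58%). Cxcl5, a neutrophil attractant, was higher in both (2.59 ± 0.31 and 2.84 ± 0.38).

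The list of upstream factors and receptors moved less evenly. Of 16 tested in luminal progenitors, 7 were higher and 3 lower in PI (13.9% and 13% of all genes), with a median change of 0.02. The receptors Il6ra (1.13 ± 0.16) and Il1r1 (1.73 ± 0.25) were higher. In the secretory lineage 3 of 16 were higher and 11 lower in G, with a median change of -0.84, in a comparison where 31% of all genes were higher and 27.4% lower. Among these Osmr, the oncostatin M receptor (-3.54 ± 0.18), Nfkbiz (-1.87 ± 0.11) and Nfkb1 (-1.68 ± 0.11) were lower and Ehf, an epithelial ETS factor (1.73 ± 0.13), was higher. In the hormone-sensing cells of gestation none of 16 was higher and 9 were lower (8.03% and 10.6% of all genes).

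The levels of some members rose and fell together over the 35 sums. On log2(CPM + 1), Pearson's correlation was highest for Lcn2 with Trf (0.86), Trf with Pigr (0.81) and Pigr with Wfdc18 (0.78), and lowest for Wfdc2 with Wfdc18 (-0.34). The sums share libraries and depth, so these are descriptions with no test. Among 9761 genes that reached 20 CPM, the gene most like Lcn2 was Cp, the copper carrier ceruloplasmin (0.92), and the gene most like Trf was the kappa-casein gene Csn3 (0.92). Pigr was most like Lbp (0.93), Fcgbp like the luminal progenitor marker Aldh1a3 (0.93), Wfdc18 like the mucin gene Muc15 (0.95), Muc1 like Aldoc (0.92), Wfdc2 like the sodium channel gene Scnn1a (0.92) and Ltf like Clic6 (0.90). Wfdc12 (Hes6, 0.80) and Slpi (Ctsl, 0.74) had no partner as near.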

How the data were processed

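Single mammary epithelial cells of 8 mice, 1 library per mouse, were profiled on the 10x Chromium platform. The deposited matrices hold raw UMI counts per gene and cell, which the authors made with Cell Ranger count and aggr without normalisation between lanes, on mm10 with the pre-built 10x annotation. The submitters' processing notes also name STAR. The authors filtered cells and clustered them with scran, and their deposited annotation gives each cell's cluster and its fraction of mitochondrial UMIs. Those cells and clusters were used as deposited, and no doublet caller was run. C20, with 103 and 205 of its 310 cells from the G mice, was left out.

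Counts were summed per mouse and cluster or lineage. Levels are CPM of a sum of at least 20 cells, and correlations used log2(CPM + 1). Shares of cells were also computed after thinning each cell to 1000 UMIs. The 95% exact Clopper-Pearson intervals, and the limit of 3 UMIs for a gene at 0, cover counting error only. Stage comparisons used edgeR 4.0.16 in R 4.3.3 (filterByExpr with a minimum count of 10 and a minimum total of 15, TMM scaling, quasi-likelihood test, Benjamini-Hochberg adjustment over all genes tested). Mice were separate animals. The difference between cell types was tested as an interaction with the mouse as a block. On simulated counts with 200 changed genes, 93.5% were recovered for luminal progenitors (10665 genes) and 97.5% for differentiated alveolar cells (11842 genes). For hormone-sensing cells of gestation (10821 genes) the share was 97.5%, and for basal cells from G to L (12667 genes) 95.5%. Unchanged genes made up 1.06%, 4.88%, 3.94% and 3.05% of the calls, in the same order. These shares hold for those counts only, and recovery in the counts of the mice was not tested.

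All 10 members are named. Of each other list, genes past the test with 20 CPM in a group and a log2 fold change of at least 1 could be named, at most 5 per list and comparison by lowest p, and likewise the 3 genes nearest to each member by Pearson's correlation. Members and lists were chosen with earlier results of these data known. Alternatives were DESeq2 1.42.0, no filter, leaving out each mouse, a replicate block, thinned sums, milk protein genes left out, only the cluster named for the stage and, chosen after the data were seen, total-count scaling. Python 3.11.15, NumPy 2.4.6, pandas 2.3.3, SciPy 1.17.1 and Matplotlib 3.10.9 were used. Promoter windows are from RefSeq.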

Additional observations from a re-analysis of the deposited data

Results flagged for a closer look

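In 8 tests the difference between NP and PI was not of the same size in a pair of luminal cell types, each by edgeR's interaction test over 11743 genes. Between luminal progenitors and differentiated hormone-sensing cells the difference of log2 fold changes was 2.04 ± 0.34 for Slpi (adjusted p = 0.000234), 1.75 ± 0.22 for Lcn2 (adjusted p = 9.82e-06), 1.72 ± 0.31 for Wfdc18 (adjusted p = 0.000528), 1.66 ± 0.20 for Trf (adjusted p = 7.14e-06), 1.51 ± 0.25 for Ltf (adjusted p = 0.000174), 1.25 ± 0.24 for Wfdc2 (adjusted p = 0.000864) and -1.97 ± 0.18 for Muc1 (adjusted p = 1.13e-07). In differentiated hormone-sensing cells Slpi and Trf lay below the non-epithelial cells in all 4 mice and Lcn2 in 3 of 4. Ltf and Wfdc18 lay below them in 2 of 4 and 1 of 4 mice. Over 6 alternatives the difference ranged from 1.52 to 3.93 for Slpi, 1.20 to 2.29 for Lcn2, 1.09 to 2.38 for Wfdc18, 1.13 to 2.16 for Trf, 0.86 to 2.18 for Ltf, 0.67 to 1.79 for Wfdc2 and -2.16 to -1.73 for Muc1. Between luminal and hormone-sensing progenitors the difference was 1.49 ± 0.24 for Wfdc2 (adjusted p = 0.000963, range 0.97 to 1.97). With 2 mice per stage no mouse could be tested as standing apart from its group.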

How the results depend on the processing

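The smallest groups were the G hormone-sensing cells, 20 and 41, and the L differentiated alveolar cells, 43 and 48, and each stage had 2 mice. The sums of 1 arm left with a single mouse were assumed to vary like those of the other. Of the single-gene values, 604 of 634 kept direction and call under the other alternatives (7 lost and 21 gained a call, 2 changed sign), as did 393 of 420 when a mouse was left out (6 lost, 20 gained, 1 changed sign). The cause of the moves below was not tested.

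With DESeq2 the genes called went from 2892 to 1590 in luminal progenitors, from 1778 to 823 in hormone-sensing progenitors, from 2368 to 1144 in alveolar progenitors and from 5114 to 3098 in basal cells from NP to G, and members called from 5 to 3 in basal cells from G to L. For the differences between lineages they went from 2375 to 1071 (luminal progenitors minus differentiated hormone-sensing cells) and from 417 to 206 (minus hormone-sensing progenitors). Thinning the sums gave 1162 in place of 2219 genes in differentiated alveolar cells and 621 in place of 2047 in the hormone-sensing cells of gestation. Total-count scaling gave 6096 in differentiated alveolar cells. With C6 and C10 alone the secretory comparison called 4540 in place of 7221 genes, and Trf (-2.21) and Fcgbp (0.28) changed sign. Without the filter 4 members in place of 1 differed between the progenitors. Total-count scaling moved the median change by over 0.1 also in the secretory lineage (-0.14) and in basal cells from G to L (-0.11).

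Leaving out 1 mouse gave 1704 to 2472 genes and 7 to 9 members in luminal progenitors (1704 without NP mouse 1), 476 to 1960 and 6 to 8 in hormone-sensing progenitors (538 without NP mouse 1, 476 without NP mouse 2), and 928 to 2458 and 5 to 7 in differentiated hormone-sensing cells (1107 without NP mouse 1, 928 without NP mouse 2). It gave 5768 to 6513 and 10 in the secretory lineage, 609 to 1890 and 8 to 10 in differentiated alveolar cells (1078 without G mouse 1, 609 without G mouse 2), and 1625 to 2538 and 8 to 9 in alveolar progenitors. It gave 3423 to 5088 and 5 to 8 in basal cells from NP to G (8 without NP mouse 2, and Wfdc18 from -0.75 without NP mouse 2 to 1.43 without NP mouse 1), 4657 to 5703 and 5 to 7 from G to L, and 808 to 1580 and 5 to 6 in the hormone-sensing cells of gestation (1257 without NP mouse 1, 1176 without NP mouse 2, 808 without G mouse 2). For the differences between lineages it gave 1123 to 2384 and 7 against differentiated hormone-sensing cells (1123 without NP mouse 1, 1192 without NP mouse 2), and 99 to 362 and 1 to 2 against hormone-sensing progenitors (139 without NP mouse 1, 99 without NP mouse 2, each with 2 members).

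Leaving out 1 mouse moved 34 of 284 called values of members by over 1.5-fold, with 16 of them in Wfdc12. Wfdc12 ranged from 1.97 (without NP mouse 1) to 5.19 (without NP mouse 2) in luminal progenitors, from 1.90 (without PI mouse 2) to 6.34 (without NP mouse 1) in hormone-sensing progenitors, from 2.77 (without PI mouse 2) to 5.24 (without NP mouse 2) in differentiated hormone-sensing cells, and from 6.22 (without NP mouse 1) to 9.48 (without NP mouse 2) in the secretory lineage. In basal cells from NP to G, Ltf was -3.09 and Fcgbp -1.29 without NP mouse 1, and Fcgbp -4.30 without G mouse 2. In alveolar progenitors Pigr was 6.69 without G mouse 1 and 4.02 without G mouse 2, and Slpi 4.17 without G mouse 2. In differentiated alveolar cells Slpi was 1.62 without L mouse 2. Slpi was 2.27 in hormone-sensing progenitors without NP mouse 1, and Lcn2 -3.22 in the hormone-sensing cells of gestation without G mouse 2.

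The replicate numbers name separate mice, and same-numbered mice did not deviate together (correlations from -0.094 to 0.067). With the number as a block, the genes called were 3294, 1642 and 2058 in luminal progenitors, hormone-sensing progenitors and differentiated hormone-sensing cells, 6874 in the secretory lineage, 2088 and 2551 in differentiated alveolar cells and alveolar progenitors, 5276 and 6336 in basal cells (NP to G, G to L) and 1628 in the hormone-sensing cells of gestation. The block moved the number of members called to 6, 10 and 7 in differentiated hormone-sensing, differentiated alveolar and L basal cells, and left the other counts as they were.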

Other observations

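Cluster C20, which the comparisons left out, held 310 cells, 103 and 205 of them from the G mice. In these mice it had 9548 and 7673 CPM of Wfdc18, 983 and 1063 CPM of Lcn2, 1001 and 909 CPM of Trf and 307 and 189 CPM of Wfdc12, with 17974 and 12500 CPM of Csn2.

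Wfdc12 in the alveolar clusters of gestation came from few cells. In C10, 97.4% and 99.5% of its UMIs lay in the tenth of cells that held most, with up to 265 and 565 UMIs in a single cell.

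Among the 9 non-epithelial cells of PI mouse 1, Slpi reached 1686 CPM, and all 66 UMIs came from 1 cell.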
